A study of Homo sapiens with 20 samples.

Results

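Runs of neighbouring distal accessible elements in untreated LOVO control cells were followed through every peak list of an ATAC-seq study of METTL3 knockdown and the drug olaparib. An element here is an interval of the merged peak list of untreated LOVO shControl cells on chromosomes 1 to 22 that lies more than 1 kb from both ends of every protein-coding gene (RefSeq, hg38). Neighbouring elements with at most 12.5 kb between them were joined into runs, and a run of 5 or more elements is called a cluster. This gave 551 elements in 100 clusters, out of 23836 distal elements, 32735 intervals of that list on these chromosomes and 292390 intervals in all 10 lists. The elements were chosen by the peak positions of the LOVO control list alone, so their presence and spacing there are a description.

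ATAC-seq reads where the transposase Tn5 can cut, that is, where chromatin is open. LOVO and RKO are established human colon adenocarcinoma lines. In each line there were 2 samples with the hairpin shMETTL3 and olaparib, 2 with the hairpin shControl and olaparib, 2 with shMETTL3 untreated and 4 with shControl untreated, of which the labels place 2 in batch 2. All cells thus carried a hairpin, the sources used here give no dose or time for olaparib, and peak lists do not show whether METTL3 RNA fell. METTL3 catalyses the N6-methylation of adenosines in RNA, and olaparib inhibits poly(ADP-ribose) polymerases, which act in DNA repair. The study compared the accessible chromatin of these groups.

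Open chromatin far from gene ends holds enhancers, insulators and the starts of many long non-coding RNAs. Enhancers bind transcription factors and act on promoters over distance, and they often lie in groups near genes that define a cell type or answer a growth signal. In epithelial cancers AP-1, a dimer of JUN and FOS proteins that the RAS-MAPK pathway activates, is a common occupant of such elements.

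Every peak list represents a whole group of samples, so no difference could be set against the spread between replicates and no test across conditions was made. Merged lists of intervals cover untreated shMETTL3 and untreated shControl; lists with a score per peak cover both olaparib groups and, a second time, untreated shControl. The LOVO lists held 51462 peaks for shMETTL3 with olaparib, 32192 for shControl with olaparib, 16417 for shMETTL3, and 41431 (scored) and 33474 (merged) for shControl. The RKO lists held 35455, 25855, 6916, 21210 and 27978 peaks in the same order. Sequencing depth is unknown from such lists, and chromatin without a listed peak may still be open. As a check of the label, peaks of merged LOVO shControl stood at the ends of 5 of 10 epithelial marker genes (EPCAM, KRT8, CDX2, VIL1 and HNF4A), 2 of 6 leukocyte markers (SPI1 and CD68), 0 of 6 fibroblast markers and 0 of 4 endothelial markers. The epithelial share is near the background, since 52.8% of 18904 protein-coding genes away from the clusters had a peak at an end in this list, so it does not by itself mark the cells as epithelial.

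The genome sequence of most elements was not used here, but 26 of the 551 elements (4.72%, 95% exact interval 3.11 to 6.84%) reached a RefSeq promoter window, the 250 bases before and 50 after the start of a gene's transcript. The share was 6.03% for the 23285 other distal elements. These 26 elements met 31 windows of 25 genes, and 23 of the windows belonged to long non-coding RNAs. The 6 windows below (RefSeq, GRCh38.p14, 5′ to 3′ on the gene's strand) are shown as examples of 4 patterns of lists with a peak on them. Capitals mark TGANTCA, a loose form of the AP-1 core in which N is any base, searched on both strands.
LINC02777, chr1:58904089-58904388, minus strand: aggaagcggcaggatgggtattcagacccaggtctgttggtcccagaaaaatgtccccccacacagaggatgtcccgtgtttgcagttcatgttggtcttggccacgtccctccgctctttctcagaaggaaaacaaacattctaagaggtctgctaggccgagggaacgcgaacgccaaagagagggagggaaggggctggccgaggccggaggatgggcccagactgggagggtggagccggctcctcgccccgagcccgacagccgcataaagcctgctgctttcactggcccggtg
LINC-PINT, chr7:130913261-130913560, minus strand: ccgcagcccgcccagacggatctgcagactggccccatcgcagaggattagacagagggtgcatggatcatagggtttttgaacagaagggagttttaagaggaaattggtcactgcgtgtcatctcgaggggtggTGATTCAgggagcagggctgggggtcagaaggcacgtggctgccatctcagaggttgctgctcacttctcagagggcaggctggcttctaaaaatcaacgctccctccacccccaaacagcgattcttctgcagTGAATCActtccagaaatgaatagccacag
MANCR, chr10:4678021-4678320, minus strand: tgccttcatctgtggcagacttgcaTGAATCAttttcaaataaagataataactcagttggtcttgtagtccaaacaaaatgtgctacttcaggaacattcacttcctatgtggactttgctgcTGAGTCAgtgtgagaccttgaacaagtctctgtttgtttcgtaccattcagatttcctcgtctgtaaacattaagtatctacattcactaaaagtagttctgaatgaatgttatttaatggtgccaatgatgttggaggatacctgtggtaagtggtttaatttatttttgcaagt
LOC105376373, chr10:4671281-4671580, plus strand: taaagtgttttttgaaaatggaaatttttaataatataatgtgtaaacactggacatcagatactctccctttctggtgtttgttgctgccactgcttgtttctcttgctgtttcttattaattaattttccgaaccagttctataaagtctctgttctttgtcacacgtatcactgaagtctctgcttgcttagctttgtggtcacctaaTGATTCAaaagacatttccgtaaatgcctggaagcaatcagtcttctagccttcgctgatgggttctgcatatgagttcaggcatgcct
TGILR, chr6:3911953-3912252, minus strand: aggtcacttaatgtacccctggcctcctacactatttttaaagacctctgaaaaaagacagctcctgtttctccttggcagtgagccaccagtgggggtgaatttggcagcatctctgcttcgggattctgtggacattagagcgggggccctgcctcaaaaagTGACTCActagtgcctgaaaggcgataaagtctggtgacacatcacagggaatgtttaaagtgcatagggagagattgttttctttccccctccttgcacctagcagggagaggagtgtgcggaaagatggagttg
HECW2-AS1, chr2:196259774-196260073, plus strand: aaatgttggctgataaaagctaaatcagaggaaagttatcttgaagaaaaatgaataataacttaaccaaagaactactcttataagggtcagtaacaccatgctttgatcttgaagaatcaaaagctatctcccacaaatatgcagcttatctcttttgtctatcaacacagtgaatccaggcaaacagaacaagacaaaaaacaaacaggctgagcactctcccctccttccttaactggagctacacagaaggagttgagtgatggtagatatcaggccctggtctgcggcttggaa

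The LINC02777 and LINC-PINT windows printed here had a peak in all 9 other lists, those of both lines. A second LINC02777 window in the same cluster (chr1:58896737-58897036) had a peak in every other LOVO list except shControl with olaparib, and in no RKO list. LINC-PINT is a long non-coding RNA that p53 induces. The MANCR window had a peak in all 4 other LOVO lists and in no RKO list. The LOC105376373 window, in the same cluster as MANCR, and the HECW2-AS1 window had a peak in every other LOVO list except untreated shMETTL3, and in no RKO list. The TGILR window had a peak in shMETTL3 with olaparib and in scored shControl, and in none of the 7 lists left. TGANTCA stood in 9 of the 31 windows (29.0%), against 12.6% of 1789 windows on other distal elements, 3.94% of 10375 windows on intervals within 1 kb of a gene end and 7.67% of all 33725 windows. Several windows overlap each other, 5 of the 31 are windows of PACSIN2, and the median GC content was 50.3% on the cluster elements, 62.7% on other distal elements and 58.7% over all windows. The cyclic-AMP response element TGACGTCA, also searched on both strands, was in 0 of the 31 windows, against 1.87% of all windows. All 9 windows with TGANTCA had a peak in LOVO shMETTL3 with olaparib, 8 in shControl with olaparib, 6 in untreated shMETTL3 and 9 in scored shControl. Of the 22 windows without it, 16, 11, 8 and 17 had a peak in those lists. A match of letters is a description and not a bound site.

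The 100 clusters were short, sparse runs. There were 64 clusters of 5 elements, 27 of 6, 4 of 7, 4 of 8 and 1 of 9. The median cluster spanned 31977 bp (lowest 16830, highest 63222 bp), and elements covered a median of 9.12% of the span (5.43 to 19.8%). The median gap between neighbours was 6871 bp. Just outside the threshold lay 196 runs of 4 elements, with 784 elements and a median span of 22577 bp, against 29669 bp for the 64 clusters of 5. The median width of an element was 531 bp in clusters of 5 and 517 bp in runs of 4.

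Cluster elements were wider than other distal elements and lay farther from genes. Their median width was 531 bp, against 483 bp for other distal elements and 916 bp for intervals at gene ends. The median distance to the nearest end of a protein-coding gene was 52891 bp for cluster elements and 30170 bp for other distal elements. Of the cluster elements 30.9% (95% exact interval 27.02 to 34.9%) lay inside the body of a protein-coding gene, against 48.7% of other distal elements. A span held no protein-coding gene in 63 clusters, a long non-coding RNA gene in 47 and neither in 25. For 21 clusters the nearest protein-coding gene end was more than 100 kb away. Chromosomes 9, 15, 14 and 12 had 4.23, 4.14, 4.13 and 3.91 cluster elements per 100 distal elements, and chromosomes 13, 4, 16 and 18 had 0.750, 0.813, 0.850 and 0.969. These are densities of the LOVO control list, which the choice of clusters used. That choice also left out intervals within 1 kb of a gene end, so the distances and gene-body shares are descriptions too.

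In LOVO cells the cluster elements were present more often than other distal elements in each of the 4 lists that did not define them. With shMETTL3 and olaparib 517 of 551 elements (93.8%, 95% exact interval 91.5 to 95.7%) had a peak, against 88.8% of other distal elements and 91.4% of all intervals of the list. With shControl and olaparib 440 (79.9%, 76.3 to 83.1%) had one, against 70.5% of other distal elements and 77.0% of all intervals. With untreated shMETTL3 268 (48.6%, 44.4 to 52.9%) had one, against 40.6% and 47.8%. In the scored list of untreated shControl 502 (91.1%, 88.4 to 93.3%) had one, against 84.2% and 87.7%. The share over all intervals includes those at gene ends, which had a peak more often than both distal classes: 98.2%, 93.8%, 66.7% and 96.9% in the same 4 lists. These intervals cover counting error only, and elements of a cluster are neighbours and not independent.

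The differences were smaller, and of the same sign, at like width. Without regard to width, cluster elements exceeded other distal elements by 5.02 percentage points with shMETTL3 and olaparib, 9.33 with shControl and olaparib, 8.01 with untreated shMETTL3 and 6.95 in scored shControl. When other distal elements were weighted to the widths of the cluster elements, in 5 classes, the differences were 3.70, 5.66, 4.32 and 4.88 points. Among elements with a peak in scored shControl, weighting to the same score classes left 1.18, 5.51 and 5.41 points for shMETTL3 with olaparib, shControl with olaparib and untreated shMETTL3. In RKO lists every one of these differences was negative, as given further on. For untreated shMETTL3 the width-weighted difference turned to -0.427 points when clusters were rebuilt from the scored shControl list, so its direction rests on which control list defines the clusters.

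**Figure D1:**
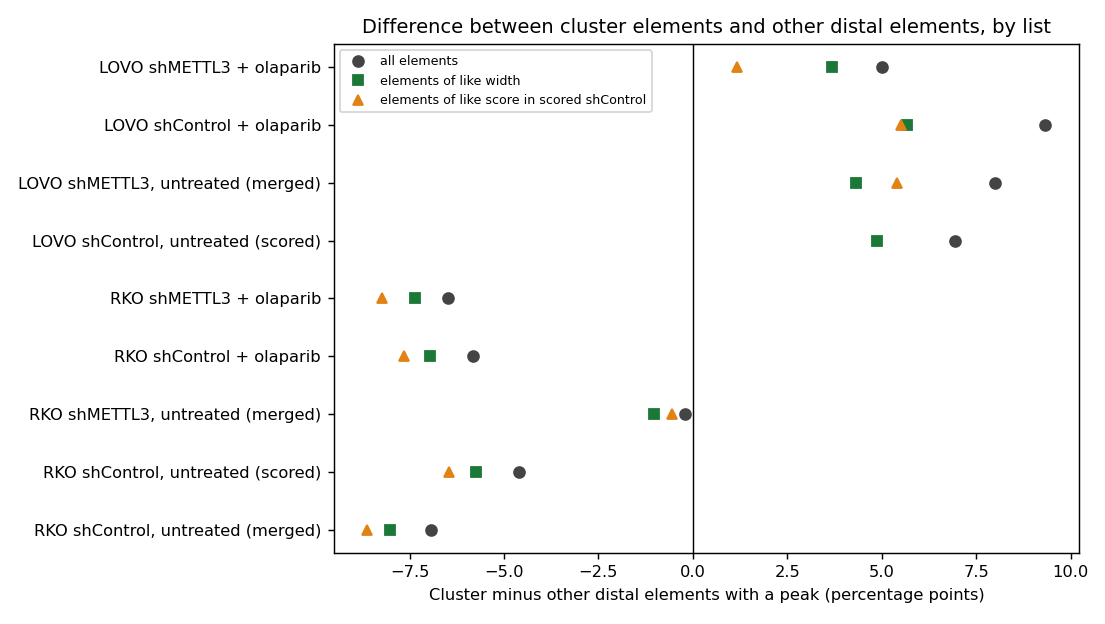
Difference, in percentage points, between cluster elements and other distal elements in the share with a peak, for each of the 9 other lists; circles are all elements, squares weight other distal elements to the cluster elements' widths, and triangles weight to their score in scored LOVO shControl among elements with a peak there. All LOVO points lie right of 0 (1.18 to 9.33) and all RKO points left of 0 (-0.198 to -8.61).

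In the LOVO lists the share with a peak was higher in runs of 3 than for lone elements, and in the RKO lists it was lower. With untreated LOVO shMETTL3 it was 38.8% for lone elements, 42.7% in runs of 2, 48.1% in runs of 3, 44.3% in runs of 4, 48.1% in clusters of 5, 48.8% in clusters of 6 and 50.7% in clusters of 7 to 9. With shControl and olaparib in LOVO the series was 68.4, 72.9, 77.3, 79.3, 80.9, 78.4 and 78.3%. With shMETTL3 and olaparib in RKO it was 32.9, 27.5, 26.2, 23.9, 24.4, 23.5 and 26.1%, and in merged RKO shControl 29.8, 24.3, 23.9, 21.6, 21.6, 20.4 and 18.8%. The intervals of runs of 4 and clusters of 5 overlapped in all 9 lists.

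**Figure D2:**
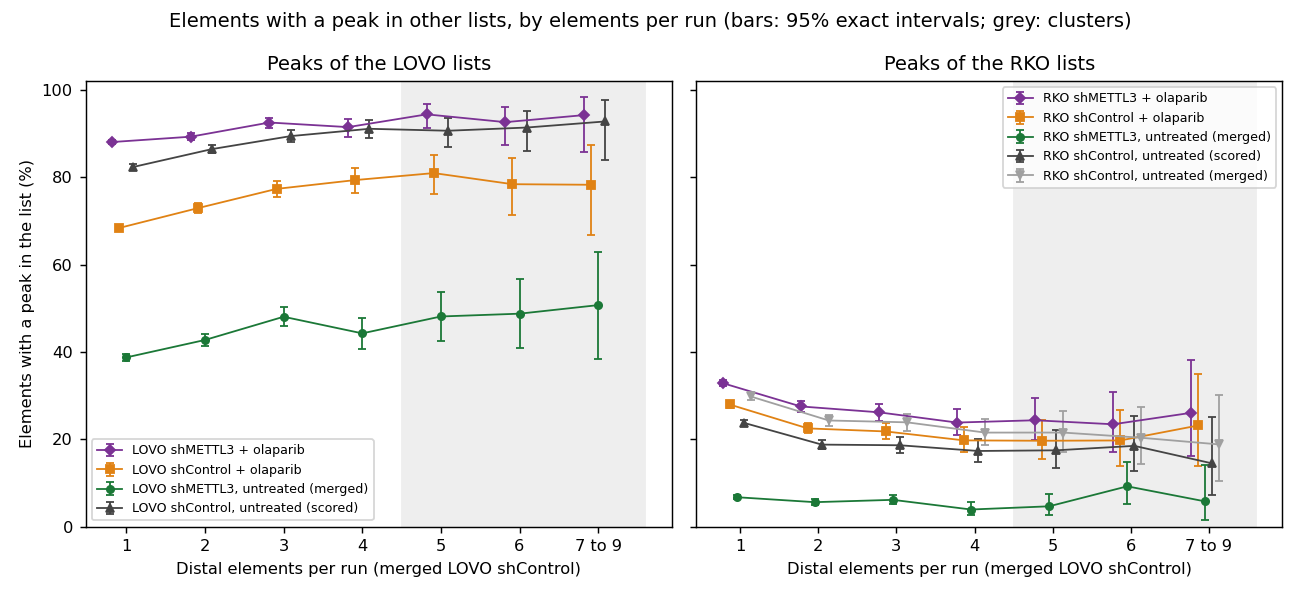
Percent of distal elements with a peak in each list (points, with 95% exact intervals for counting error) against the number of elements in the run, for LOVO lists on the left and RKO lists on the right; grey marks the 100 clusters. Untreated LOVO shMETTL3 runs from 38.8% for lone elements to 50.7% in clusters of 7 to 9, while merged RKO shControl runs from 29.8% to 18.8%.

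Comparing lists of the same form, METTL3 knockdown without drug left 268 of the 551 elements of the merged shControl list with a peak, and 283 without. The share with a peak, 48.6%, stood against 40.6% of other distal elements and 47.8% of all intervals. In the second list of the same untreated shControl group, which differs in form and may rest on the same samples, 49 elements had no peak. That number is no measure of the spread between samples. The shMETTL3 list is also the shortest LOVO list, 16417 peaks against 33474, and the part of list length in the loss was not tested. Among elements with a peak in scored shControl, 432 of 502 (86.1%, 82.7 to 89.0%) had one with olaparib, against 79.9% of other distal elements and 84.7% of all intervals. Under olaparib, 431 of the 440 elements with a shControl peak (98.0%, 96.2 to 99.1%) had one with shMETTL3, against 96.4% of other distal elements and 97.4% of all intervals.

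Elements without a peak after knockdown alone mostly had one after knockdown with olaparib. Of the 283 elements with no peak in untreated shMETTL3, 249 (88.0%, 83.6 to 91.5%) had a peak in shMETTL3 with olaparib, against 81.6% of other distal elements in that state and 84.0% of all such intervals. These 2 lists differ in form and in length, 51462 against 16417 peaks, and the part of either in this count was not tested. Of 70 elements with a peak in scored shControl and none with olaparib, 59 (84.3%, 73.6 to 91.9%) had a peak in shMETTL3 with olaparib, against 84.1% of other distal elements.

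Taken element by element, 257 of 551 (46.6%, 42.4 to 50.9%) had a peak in all 4 other LOVO lists, against 37.8% of other distal elements. A further 168 (30.5%) had a peak in every LOVO list except untreated shMETTL3, against 27.8%. A total of 14 (2.54%) had a peak in none of the 4, against 5.91% of other distal elements; they lay in 11 clusters and were narrow, with a median of 298 bp. At the other end, 24 elements in 20 clusters had a peak in all 9 other lists, with a median width of 776 bp, and their share (4.36%) was close to that of other distal elements (4.27%).

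Width and score ordered the elements within clusters as they did elsewhere. Elements with a peak in untreated shMETTL3 were a median of 645.5 bp wide (268 elements), and those without one 427 bp (283). From the narrowest to the widest of 5 width classes, the share with a shMETTL3 peak was 12.9, 24.7, 48.0, 61.9 and 75.2% of cluster elements, against 11.3, 26.1, 41.3, 56.7 and 68.6% of other distal elements. From the lowest to the highest of 5 classes of score in scored shControl, it was 21.2, 29.1, 51.5, 67.3 and 95.6%, against 14.2, 26.5, 43.7, 63.8 and 88.5%. With olaparib in shControl cells it was 63.5, 83.6, 87.4, 93.8 and 98.9%, against 55.8, 72.0, 82.9, 91.6 and 97.6%. The scores themselves did not set cluster elements apart: the median score of peaks on them was 10.8 with shMETTL3 and olaparib, 8.97 with shControl and olaparib and 10.1 in scored shControl, against 11.1, 9.01 and 10.1 on other distal elements. Scores from different lists are on each list's own scale.

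**Figure D3:**
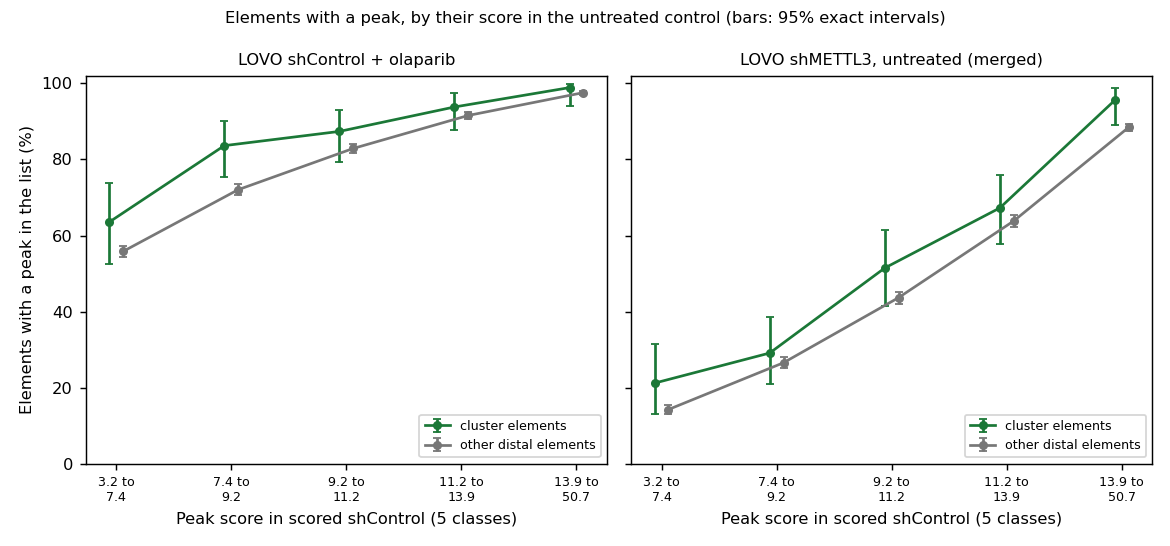
Percent of elements with a peak in LOVO shControl with olaparib (left) and in untreated LOVO shMETTL3 (right) against their score in the scored list of untreated LOVO shControl, in 5 classes; bars are 95% exact intervals. In untreated shMETTL3 cluster elements range from 21.2% to 95.6% and other distal elements from 14.2% to 88.5%.

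Neighbours inside a cluster were only loosely alike. With untreated shMETTL3, 247 of 451 neighbouring pairs (54.8%) were in the same state, both with or both without a peak, against 49.9% over all pairs of cluster elements. In runs of 2 to 4 elements the corresponding shares were 54.4% and 50.7%. With olaparib in shControl cells they were 67.8% and 67.8% in clusters. First and last elements of a cluster had a shMETTL3 peak in 48.0% of 200 cases and inner elements in 49.0% of 351. Elements inside a gene body had one in 44.1% of 170 cases (36.5 to 51.9%) and elements between genes in 50.7% of 381 (45.5 to 55.8%).

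By cluster, most had a peak on some elements and not on others after knockdown alone. The share over all elements, 48.6%, was near the 47.8% of all intervals. With untreated shMETTL3, 6 of the 100 clusters had a peak on every element, 4 on none, and 52 on at least 50% of them. With shMETTL3 and olaparib 75 clusters had a peak on every element, with shControl and olaparib 30, and in scored shControl 63; none of these 3 lists left a cluster without a peak. Inside the spans the lists held 664 peaks with shMETTL3 and olaparib, 501 with shControl and olaparib, 274 with untreated shMETTL3, and 604 (scored) and 552 (merged) with untreated shControl. Of these, 108, 46, 5, 68 and 1 lay between the elements that define the cluster. With shMETTL3 and olaparib 16.3% of the peaks inside the spans thus lay off the elements, against 40.6% of all distal peaks of that list that lay on no interval of merged shControl, a comparison that the choice of the spans affects.

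**Figure D4:**
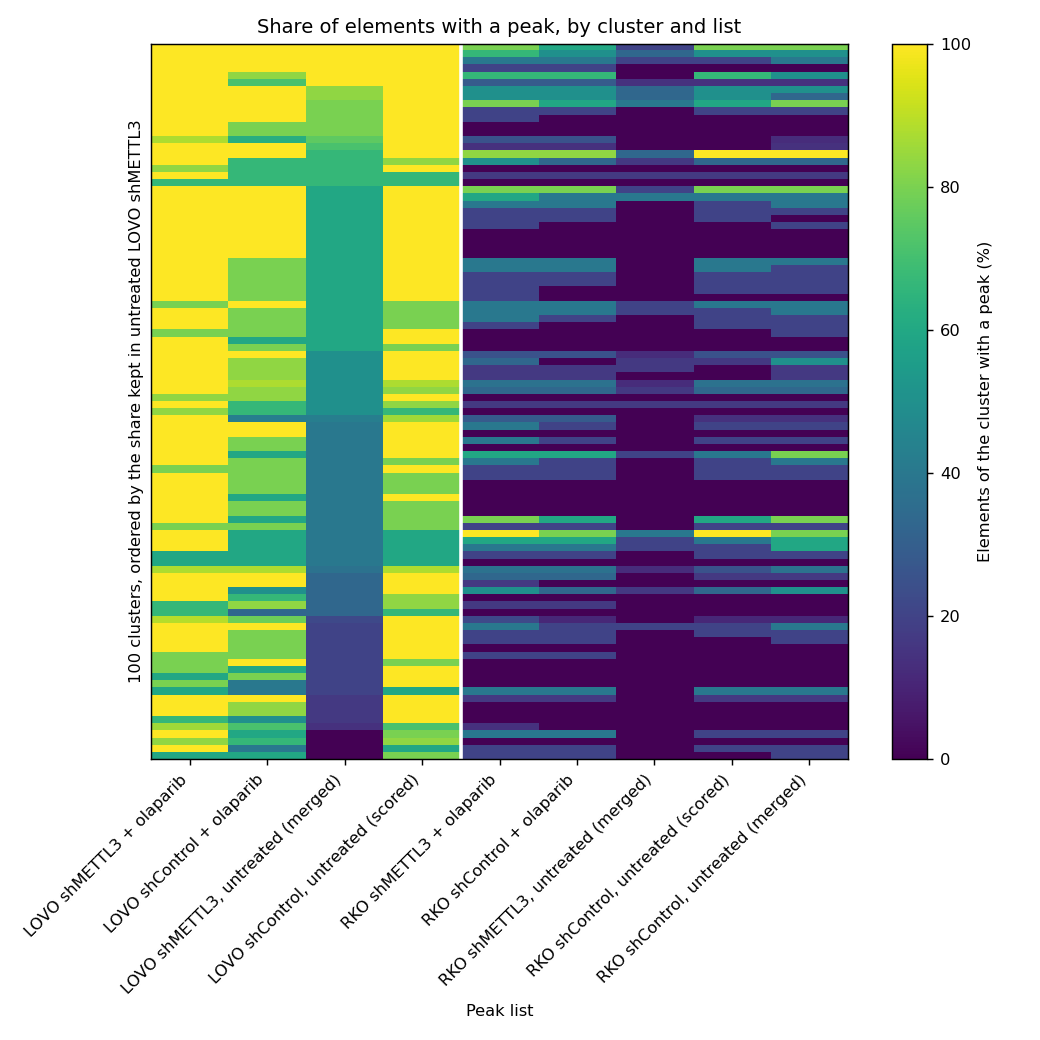
Percent of a cluster's elements with a peak (colour) in each of the 9 other lists (columns), for the 100 clusters (rows, ordered by the share in untreated LOVO shMETTL3). The untreated LOVO shMETTL3 column runs from 6 clusters at 100% to 4 at 0%, and 31 clusters are at 0 in all 5 RKO columns.

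The number of clusters that the same rule gave from each list separately varied widely. It gave 562 clusters from LOVO shMETTL3 with olaparib, 135 from shControl with olaparib, 13 from untreated shMETTL3 and 342 from scored shControl, where distal peaks numbered 37924, 21475, 10184 and 29189, against 100 clusters from 23836 in merged shControl. Of the 100 clusters of merged shControl, 92, 49, 9 and 82 were met by a cluster of those lists. Seen from the other lists, 16.4, 36.3, 69.2 and 24.0% of their own clusters lay on one of the 100.

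RKO cells shared fewer of the cluster elements than of other distal elements. With shMETTL3 and olaparib 134 of 551 (24.3%, 20.8 to 28.1%) had an RKO peak, against 30.8% of other distal elements and 46.3% of all intervals. With shControl and olaparib 111 (20.1%, 16.9 to 23.7%) had one, against 26.0% and 41.9%. With untreated shMETTL3 34 (6.17%, 4.31 to 8.52%) had one, against 6.37% and 16.5%. In scored shControl 96 (17.4%, 14.3 to 20.9%) and in merged shControl 115 (20.9%, 17.6 to 24.5%) had one, against 22.02% and 27.8% of other distal elements and 37.4% and 44.0% of all intervals. At like width the differences from other distal elements were -7.36, -6.95, -1.02, -5.75 and -8.01 points in this order. Gene-end intervals, by contrast, had a peak in merged RKO shControl in 87.9% of cases. Of the 551 elements 409 (74.2%, 70.4 to 77.8%) had a peak in no RKO list, against 65.2% of other distal elements, and 173 (31.4%) had one in every LOVO list and in no RKO list, against 22.6%. In 31 clusters no element had a peak in any RKO list.

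RKO cells had their own clusters in other places. Applied to merged RKO shControl, the rule gave 41 clusters with 231 elements among 16542 distal intervals, against 100 clusters among 23836 distal intervals in LOVO; with lists of unequal length these numbers do not compare the lines. The spans met in 3 places, which is 3 of the 100 LOVO clusters and 3 of the 41 RKO clusters (7.32%). Among these were, named after their values were seen, the clusters beside OSBP, which encodes an oxysterol-binding protein, and beside BHLHE40, which encodes a transcriptional repressor. Of the 231 RKO cluster elements 42.9% had an interval in merged LOVO shControl, against 40.7% of other distal intervals of RKO.

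The clusters were then described by the genes beside them, 87 protein-coding genes that overlapped a span or were the nearest within 100 kb, which is 0.458% of 18991. Nearness does not show that a cluster acts on a gene. The gene lists below were chosen with earlier results of these data known, so their counts are descriptions. Among genes of RAS-MAPK feedback 3 of 12 were such neighbours: DUSP5, a nuclear ERK phosphatase, PHLDA1, an early growth-factor response gene, and IER3, an early stress-response gene. Among keratin, junction and brush-border genes 2 of 22 were neighbours, KRT20 (an intestinal differentiation keratin) and VILL (villin-like). ELF3, an epithelial ETS factor, was the only neighbour among 22 gut transcription factors, JUN among 12 AP-1 genes, and EPHA2 among 14 receptors and ligands. Housekeeping genes and genes of actin and adhesion each held 1 of 18 (5.56%), also above the share over all protein-coding genes. The lists for Wnt and stem cells (20 genes), YAP and TEAD (12), TGF-beta (16), mesenchymal genes (13) and p53 targets (12) held 0. Peaks stood at an end of 61 of the 87 neighbours (70.1%) in LOVO shMETTL3 with olaparib and 54 (62.1%) in shControl with olaparib. The number was 33 (37.9%) in untreated shMETTL3, 57 (65.5%) in scored shControl and 46 (52.9%) in merged shControl. Of other genes 59.9, 54.6, 37.1, 57.2 and 52.8% had one in these lists. In the RKO lists, in the same order, 64.4, 59.8, 33.3, 56.3 and 60.9% of neighbours had one. Other genes there had 56.7, 53.7, 26.3, 48.9 and 56.1%. In LOVO, neighbours and other genes were nearly alike in merged shControl and untreated shMETTL3. The excess in the remaining LOVO lists was not particular to LOVO, since every RKO list had one.

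The cluster nearest to JUN, 97457 bp from the gene end at chr1:58881504-58933250, held LINC02777 and 7 elements of 250 to 906 bp. All 7 had a peak in LOVO shMETTL3 with olaparib, 5 in shControl with olaparib, 7 in untreated shMETTL3 and 7 in scored shControl. The widest element (906 bp, chr1:58903452-58904357), which carries the LINC02777 promoter window printed above, was the only one of the 7 with a peak in all 5 RKO lists. Its scores were 13.3, 13.7 and 11.8 in LOVO shMETTL3 with olaparib, shControl with olaparib and scored shControl, and 9.71, 9.74 and 10.1 in the RKO lists of the same groups. The 2 elements without a peak in shControl with olaparib, 250 and 414 bp wide, scored 12.2 and 13.0 with shMETTL3 and olaparib and 6.93 and 10.6 in scored shControl. The end of JUN itself had a peak in all 10 lists.

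In each of the 4 other LOVO lists, the clusters near the RAS-MAPK feedback genes had a peak on most of their elements. Of all 100 clusters, 100 had a peak on at least 50% of elements with shMETTL3 and olaparib and 95 with shControl and olaparib. The number was 52 with untreated shMETTL3 and 100 in scored shControl, so this was not particular to these 3 clusters. The DUSP5 cluster (chr10:110388027-110414992, 82915 bp from the gene end) had peaks on 6 of its 6 elements with shMETTL3 and olaparib, 6 with shControl and olaparib, 5 with untreated shMETTL3 and 6 in scored shControl. The IER3 cluster (chr6:30749520-30788431) likewise had 6, 6, 5 and 6 of 6, and its elements were wide, with a median of 874 bp. The PHLDA1 cluster (chr12:75928696-75960477) had 6, 4, 4 and 5 of 6. Elements with a peak in all 4 of these lists numbered 5 in the DUSP5 cluster, 5 in the IER3 cluster and 2 in the PHLDA1 cluster. In each of these 3 clusters 3 of the 6 elements had a peak in at least 1 RKO list. Among the LOVO lists, the end of PHLDA1 had a peak in all 5, and that of IER3 in all but untreated shMETTL3. The end of DUSP5 had one only in merged shControl and in shControl with olaparib. The element of the DUSP5 cluster without a shMETTL3 peak, 938 bp wide, scored 8.502, 5.904 and 6.996 in shMETTL3 with olaparib, shControl with olaparib and scored shControl, and had a peak in all 5 RKO lists, untreated RKO shMETTL3 included.

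The cluster with the most elements lay 53565 bp from F3, the gene of tissue factor, the protein that starts blood clotting (chr1:94595324-94658545, 9 elements). It had peaks on 8 elements with shMETTL3 and olaparib, 7 with shControl and olaparib, 2 with untreated shMETTL3 and 9 in scored shControl. The 2 elements with a shMETTL3 peak were 527 and 459 bp wide, and both elements of 853 bp had none. Those 2 scored 12.8 and 12.3 with shMETTL3 and olaparib, the highest of the cluster in that list, and 10.6 and 11.7 in scored shControl. One element (chr1:94646164-94646836, 673 bp) had a peak in scored shControl, with a score of 8.13, and in none of the other 8 lists. The end of F3 had a peak in all 10 lists, and 2 of the 9 elements had a peak in at least 1 RKO list.

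Of the clusters of 8 elements, that in CDKN2B-AS1 (chr9:22084512-22125064), beside CDKN2B, which encodes a CDK4 and CDK6 inhibitor, had 7 elements with a peak in shMETTL3 with olaparib, 5 in shControl with olaparib, 6 in untreated shMETTL3 and 8 in scored shControl. Its element with the highest score in all 3 scored LOVO lists (649 bp, chr9:22124416-22125064) scored 21.1, 11.02 and 19.4, and had no peak in any RKO list. The ABTB2 cluster on chromosome 11 had 8, 7, 4 and 7 of 8.

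The 4 clusters without any untreated shMETTL3 peak, named after their values were seen except the first, were those near IL37, FOXJ2 and BCAS1 and that at BMF. IL37 encodes an anti-inflammatory cytokine, FOXJ2 a forkhead factor and BMF a protein that promotes apoptosis. The IL37 cluster (chr2:112866093-112902178, 6 elements) had peaks on 5 elements with shMETTL3 and olaparib, 4 with shControl and olaparib, 0 with untreated shMETTL3 and 5 in scored shControl, and on 0 in each of the 5 RKO lists. Its scores in scored shControl ran from 5.81 to 12.8, and the end of IL37 had no peak in any of the 10 lists. The FOXJ2 cluster had 5, 2, 0 and 3 of 5 elements with a peak in the 4 LOVO lists, and the BMF cluster 5, 3, 0 and 4. The BCAS1 cluster, 77082 bp from the gene end at chr20:53829256-53866459, had 3, 3, 0 and 4 of 5. A second cluster nearer to BCAS1 (25889 bp), also named after its values were seen, had 5, 5, 2 and 5 of 5.

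The 6 clusters with an untreated shMETTL3 peak on every element were those near EPHA2, JUN, PLEKHG6, KCMF1 and SPP2 and that at SYTL3; PLEKHG6, SPP2 and SYTL3 were named after their values were seen. The KCMF1, PLEKHG6, SPP2 and SYTL3 clusters also had a peak on every element in the other 3 LOVO lists, the only 4 to do so. KCMF1 encodes an E3 ubiquitin ligase and SYTL3 a protein of vesicle transport. In the KCMF1 cluster (chr2:84919693-84958792, 6 elements) scores in scored shControl ran from 9.03 to 21.3, and the element with the highest (1058 bp) scored 19.7 with shMETTL3 and olaparib and 17.7 with shControl and olaparib and had a peak in all 5 RKO lists. The SPP2 cluster had a peak on 1 of its 5 elements in RKO shMETTL3 with olaparib and in RKO shControl with olaparib and on 0 in the other 3 RKO lists. The EPHA2 cluster, 2825 bp from the end of that ephrin receptor gene, had 6, 5, 6 and 6 of 6 in LOVO and 4, 4, 0, 4 and 3 of 6 in the RKO lists. Among the LOVO lists, the end of EPHA2 itself had a peak only in shMETTL3 with olaparib and in scored shControl.

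At the epithelial gene ELF3 the cluster of 5 elements had peaks on 5 in LOVO shMETTL3 with olaparib, 5 in shControl with olaparib, 3 in untreated shMETTL3 and 5 in scored shControl. In RKO it had 1 with shMETTL3 and olaparib, 1 in merged shControl and 0 in the other 3 lists. The end of ELF3 had a peak in all 5 LOVO lists and in no RKO list. The KRT20 cluster had 5, 3, 2 and 3 of 5 in LOVO and 3, 3, 1, 2 and 3 in RKO, and the VILL cluster 5, 3, 2 and 3 in LOVO and 2, 2, 1, 1 and 3 in RKO. The end of KRT20 had a peak only in LOVO shMETTL3 with olaparib. The end of VILL had one in every LOVO list except untreated shMETTL3, and in no RKO list.

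**Figure D5:**
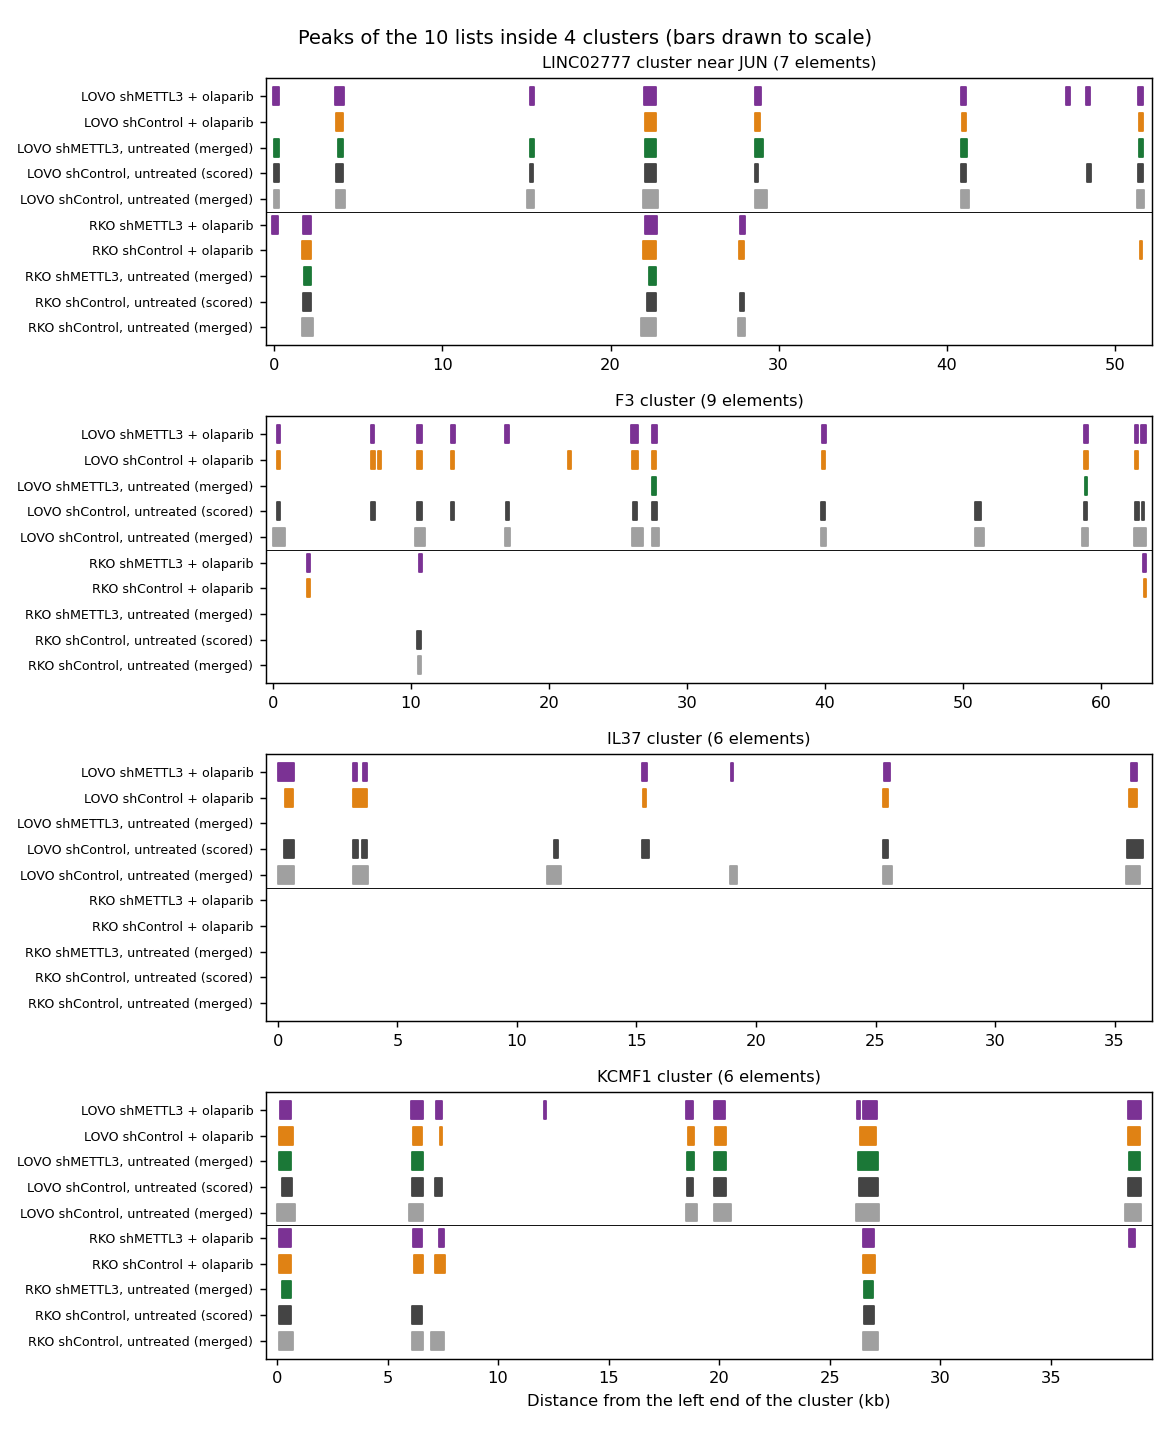
Peaks of all 10 lists inside the spans of 4 clusters, drawn to scale against the distance from the cluster's left end in kb; LOVO lists stand above the line and RKO lists below it. The LINC02777 cluster has a peak on 7 of 7 elements in untreated LOVO shMETTL3, the F3 cluster on 2 of 9, the IL37 cluster on 0 of 6 with no RKO peak, and the KCMF1 cluster on 6 of 6 with peaks in all 5 RKO lists.

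Among other clusters with no RKO peak on an element, the LOVO shares ranged widely. The HECW2 cluster (an E3 ubiquitin ligase gene) had 6, 4, 2 and 5 of 6 elements with a peak in shMETTL3 with olaparib, shControl with olaparib, untreated shMETTL3 and scored shControl. The KALRN cluster had 6, 5, 1 and 6, the GNE cluster 6, 5, 1 and 6, and the RHPN2 cluster 5, 5, 3 and 6. GNE encodes the key enzyme of sialic acid synthesis. The PALLD cluster, at a gene of the actin skeleton, had 5, 4, 4 and 6, and those at the tyrosine phosphatase genes PTPRG and PTPN14 had 4, 2, 2 and 4 and 4, 3, 1 and 6. The MANCR cluster on chromosome 10, with 7 elements and the MANCR and LOC105376373 windows printed above, had 7, 3, 3 and 6 in LOVO and, unlike these, 2, 2, 0, 1 and 1 in the RKO lists. Its highest-scoring element (832 bp, chr10:4662853-4663684), on neither window, scored 22.2, 15.8 and 18.3 in the 3 scored LOVO lists and 21.0, 17.5 and 17.3 in RKO shMETTL3 with olaparib, shControl with olaparib and scored shControl.

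The other clusters with the most elements spread over the same range. The LY86 cluster on chromosome 6 had peaks on 7 of its 7 elements with shMETTL3 and olaparib, 7 with shControl and olaparib, 5 with untreated shMETTL3 and 7 in scored shControl. LY86 encodes MD-1, a partner of a Toll-like receptor homologue. At EPS8, whose protein caps actin filaments, the counts were 6, 5, 1 and 5 of 7, and the RKO lists had a peak on 1 element with shMETTL3 and olaparib and on 0 in the other 4 lists. The cluster over TACR2, a tachykinin receptor gene, and TSPAN15 had 6, 5, 3 and 6 of 6 in LOVO, and that near HAAO, which encodes an enzyme of tryptophan breakdown, had 6, 3, 2 and 6. The HIVEP2 cluster had 4, 5, 2 and 5 of 6, and a cluster on chromosome 14 (chr14:54105415-54147530) with no protein-coding gene end within 100 kb had 4, 4, 4 and 4 of 6. The ZNF703 cluster, named for having no RKO peak on an element and not for its number of elements, had 5, 4, 3 and 4 of 6. Across these 7 clusters the count with untreated shMETTL3 was below that of scored shControl in all but the chromosome 14 cluster, where the counts were equal. The lists differ in form and in length, 16417 against 41431 peaks. Over all 551 elements the shares were 48.6% and 91.1%, and over all intervals 47.8% and 87.7%. The lower count was thus not particular to these clusters.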

How the data were processed

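A commercial library kit was used for both lines, per the labels. The submitters' processing notes name build hg38, DiffBind 3.0.15, MACS2 2.2.7.1, Bowtie2 2.4.2 and Trim Galore 0.6.6, without roles. There are 10 peak lists, 5 per line, of which 4 hold intervals. In the other 6 the authors deposited a score with every peak, used here as deposited; the sources used here do not define it. How reads were shifted or samples pooled is not given, nor which untreated shControl list holds batch 2.

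Elements were chained with Python 3.11.15, numpy 2.4.6 and pandas 2.3.3, tested on simulated intervals, and counted as present with at least 1 bp of overlap. Intervals are 95% exact Clopper-Pearson (scipy 1.17.1) and cover counting error only; depth is unknown. Each group has 1 list per form, so no test was made. Clusters named in the text were the 20 with the most elements, those of 8 or more, those beside listed genes and up to 10 without RKO peaks. Clusters and gene lists were chosen with earlier results of these data known. Gap, size, distance, overlap and control list were varied. Promoter sequences are RefSeq's (GRCh38.p14). A few results for single genes are not reported here.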

Additional observations from a re-analysis of the deposited data

Results flagged for a closer look

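The change in the share of cluster elements with a peak under olaparib, among scored shControl lists, had opposite signs in the lines. In LOVO 440 of 551 elements (79.9%) had a peak with olaparib and 502 (91.1%) without, a difference of -11.3 percentage points. In RKO 111 (20.1%) had one with olaparib and 96 (17.4%) without, a difference of 2.72 points. Other distal elements differed by -13.6 points in LOVO and 3.93 in RKO. Over all intervals the shares with and without olaparib were 77.0 and 87.7% in LOVO and 41.9 and 37.4% in RKO. The lists themselves held 32192 and 41431 peaks in LOVO and 25855 and 21210 in RKO, and the part of list length was not tested. In merged RKO shControl, a list of another form with 27978 peaks, 115 elements had a peak, more than the 111 with olaparib. Each value comes from 1 list per group, and the difference between the lines was not tested.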

How the results depend on the processing

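With a gap of at most 5 kb there were 0 cluster elements, so no other value could be had; with 25 kb there were 2854, with 8 or more elements per cluster 41, and from the scored shControl list 1996 in 342 clusters. In clusters of 8 or more, 100% of the elements with a peak in shControl with olaparib had one in shMETTL3 with olaparib. When 50% of an element had to be covered, the shares with a peak were 92.0% (shMETTL3 with olaparib, of those in shControl with olaparib), 76.3% (shControl with olaparib, of those in scored shControl) and 39.4% (untreated shMETTL3). From the scored list the share was 74.5% with olaparib and 38.1% with untreated shMETTL3, the excess over other distal elements for shMETTL3 fell to 3.65 points, and at like width it turned to -0.427 points; the cause was not tested. The other 18 values moved by less than their counting interval or by less than 1.5 times.

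No paired analysis was possible because every deposited list is for a group, and for the same reason no replicate was left out. Peak lists limit these values: a weak library gives fewer peaks, and neither depth nor sample spread is known.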
